A study of Saccharomyces cerevisiae with 14 samples.

Results

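The 56 genes described here encode the proteins of the small (40S) subunit of the cytosolic ribosome of Saccharomyces cerevisiae. They were chosen by systematic name, not by a measured value, from the 6387 open reading frames of the array. Earlier results of these data were known when the genes were chosen. All 56 were measured and none was dropped by a filter. Of these, 48 form 24 pairs of duplicated genes (an A and a B copy) and 8 are present once. All 56 systematic names matched a small-subunit symbol in the reference gene table.

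RNA came from strain NRRL Y-12632 grown on synthetic complete medium at 30 °C, to which 30 mM 5-hydroxymethylfurfural (HMF), a sugar-derived inhibitor of yeast growth in biomass hydrolysates, was added 6 h after inoculation. Control cultures were grown in the same way without HMF. Both were sampled at 10, 30, 60 and 120 min, with 2 biological replicates per treatment and time at the first 3 times and 1 array per treatment at 120 min, so that 7 HMF and 7 control arrays were used. Every array compared a Cy3-labeled sample with Cy5-labeled untreated RNA of 0 min, and the dyes were never exchanged. Values are log2 ratios to 0 min, centred here on the median of all genes of the array, so that -1 is a 2-fold lower level than at 0 min relative to the median gene. A difference is HMF minus control on this scale, called at an adjusted p of at most 0.05 in a limma fit over all genes, with its standard error (SE). As deposited, the array medians of all genes lay between -0.32 and 1.29, and replicate arrays correlated across genes at r between 0.39 and 0.65. Precision is limited by how few arrays there are. Centring removes any change shared by all genes, so amounts per cell were not measured in these pooled cultures.

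The 40S subunit binds the mRNA and reads its codons, and its proteins are assembled on the 18S rRNA in equal numbers. In budding yeast most of them are made from gene pairs that arose in an ancient genome duplication and encode identical or nearly identical proteins. Transcription of the cytosolic ribosomal protein genes depends on Rap1p, Fhl1p, Ifh1p and Sfp1p under control of the TOR and protein kinase A pathways, and their mRNAs commonly fall together under stress and rise with growth.

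The small-subunit genes were lower with HMF than without it. On the HMF arrays the median of the 56 genes was -1.01 and -0.75 (10 min), -1.38 and -0.96 (30 min), -0.82 and -0.93 (60 min) and -0.73 (120 min). On the control arrays it was -0.41 and 0.065, -0.12 and -0.0078, -0.11 and -0.17, and 0.095 at the same times. All 7 HMF medians lay below all 7 control medians, and the lowest control median was the first replicate at 10 min. Averaged over the 4 times, the median difference of the 56 genes was -0.88, a 1.83-fold lower level, and single genes ranged from -1.19 to -0.22 with SEs of 0.11 to 0.23. In the limma fit 48 of the 56 genes (85.7%) were called lower and none higher, where 6.25% of all genes were called lower. The other 8 genes, RPS21A, RPS21B, RPS25A, RPS28A, RPS28B, RPS29A, RPS30A and RPS30B, also had mean differences below 0. Before adjustment 52 of the 56 genes passed 0.05, beside 1601 of all 6387 genes in either direction.

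Of the 56 genes, 39 had all 7 HMF arrays below all 7 control arrays, as did 3.84% of all genes. The groups did not overlap, with HMF lower, in 45, 52, 51 and 55 genes at 10, 30, 60 and 120 min, where 22%, 22.1%, 23.6% and 48.4% of all genes did so. At 120 min a single array stands on each side, so non-overlap there is only the sign of 1 difference. At every one of the 4 times 43 of the 56 genes did not overlap, against 6.36% of all genes. With the level of each array left as deposited, where HMF and control arrays differ in the median of all genes by -0.66 at 10 min and 0.26 at 60 min, all 56 mean differences stayed below 0 and 51 passed 0.05 before adjustment, but 2 were called, RPS0B among them (1.46% of all genes). Quantile normalization left 37 called genes, all of them among the 48, where 4.4% of all genes were called lower. Leaving out each of the 12 replicated arrays in turn gave 38 to 49 called genes, and 38 of the 56 were called every time. The share of all genes called in these fits is not given, so the counts describe the 56 genes only.

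**Figure D1:**
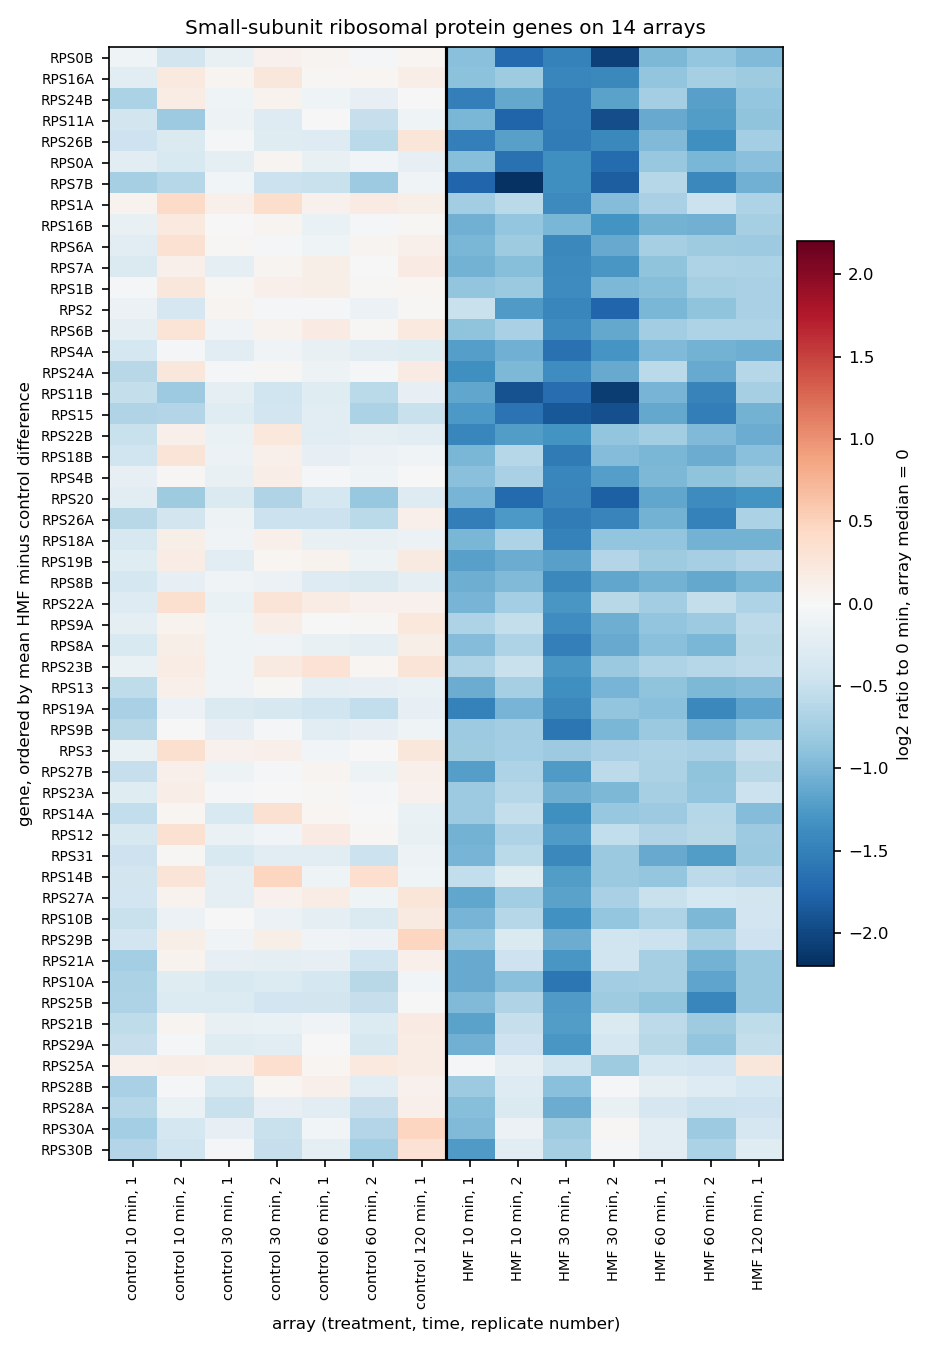
Log2 ratio to 0 min (array median of all genes = 0) of 53 of the 56 genes (rows, ordered by mean difference) on 7 control arrays (left of the black line) and 7 HMF arrays (right). The HMF side is mostly blue (below 0 min) from 10 min on, deepest at 30 min, and the palest rows are those of RPS25A, RPS28A, RPS28B, RPS30A and RPS30B at the bottom.

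At 10, 30, 60 and 120 min the 56 genes had median differences of -0.78, -1.16, -0.75 and -0.80, the 30 min value being a 2.23-fold lower level. At 30 min 22 genes were called lower, against 1.75% of all genes. Before adjustment 49 passed 0.05, beside 987 of all 6387 genes in either direction. At 10 min none was called (1.5% of all genes), with 40 at 0.05 or less before adjustment (1132 of all genes in either direction). With replicate number as a block 19 were called (4.84% of all genes), or 7 with a block for each time (2.99%). At 60 min none was called (0.407% of all genes), with 42 at 0.05 or less before adjustment (753 of all genes in either direction). With the block 3 were called (0.955% of all genes). At 120 min none was called (0.0626% of all genes), with 22 at 0.05 or less before adjustment and none with the block; with single arrays the spread is assumed to equal that of the other groups. An ordinary two-factor fit without moderation called 5, 22, 1 and 0 genes at the 4 times, where 1.88%, 2% and 0.611% of all genes were called lower at the first 3. The 30 min count rose to 37 with the block (3.23% of all genes). It fell to 0 on the deposited scale (0.188%) and to 1 with quantile normalization (0.219%). Without any 1 array of 30 or 60 min it fell to between 0 and 3, for which the share of all genes is not given.

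Under HMF the lowest of the 4 group means fell at 30 min in 41 genes, at 10 min in 12 and at 60 min in 3. The HMF group mean was at least 2-fold below 0 min in 19, 41, 16 and 8 genes at the 4 times, compared with 12.7%, 7.62%, 5.76% and 6.98% of all genes. No control group mean of any of the 56 genes was 2-fold below 0 min. From 30 to 60 min under HMF the median change was 0.28, but no gene was called by limma among the 56 or among all genes (0%). Before adjustment 7 of the 56 reached 0.05 (299 of all 6387 genes in either direction), and the ordinary fit called none. In the control the median change from 10 to 60 min was 0.04 with none called (0% of all genes), none of the 56 at 0.05 or less before adjustment and none by the ordinary fit. A change of the difference with time was called by limma for none of the 56 and 0% of all genes, with none of the 56 at 0.05 or less before adjustment and none called by the ordinary fit, so the deeper level at 30 min was not separated from the other times.

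**Figure D2:**
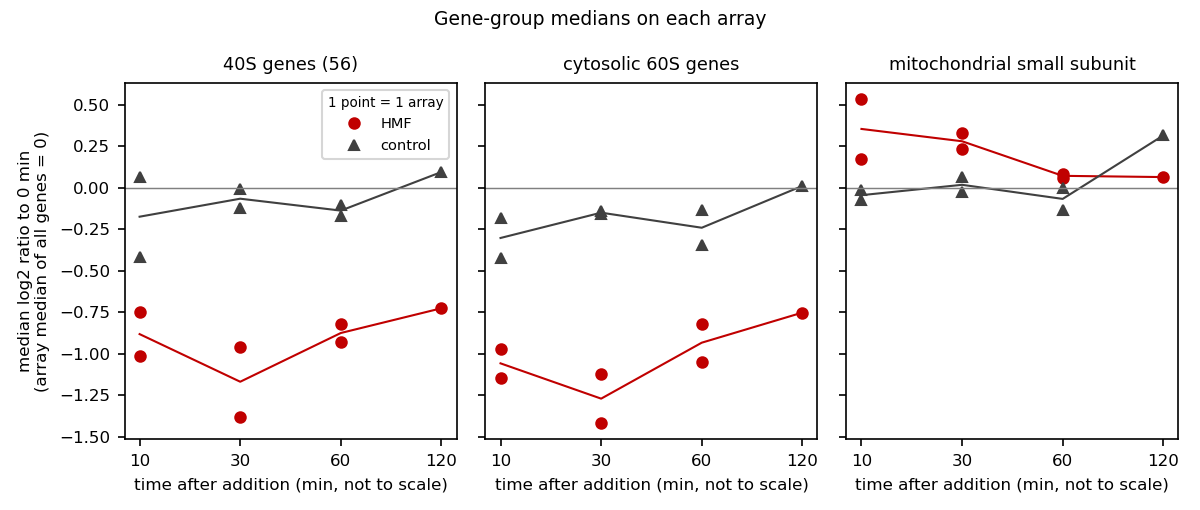
Median log2 ratio to 0 min (array median of all genes = 0) of the 56 small-subunit genes, the 81 cytosolic large-subunit genes and the 30 mitochondrial small-subunit genes against time after HMF addition; each point is 1 array, lines join group means. HMF medians of the small-subunit genes run from -1.38 to -0.73 and those of the control from -0.41 to 0.09; the mitochondrial medians stay near or above 0 in both.

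The 8 single-copy genes have no second copy that could share their signal, and all 8 were called lower. RPS2 (YGL123W), whose product lines the mRNA entry channel, was at -0.50 and -1.25 (10 min), -1.43 and -1.74 (30 min), -1.0 and -0.88 (60 min) and -0.71 (120 min) with HMF and between -0.36 and 0.06 in the control. Its difference was -0.96 (SE 0.15, adjusted p = 0.005), and its first HMF replicate at 10 min lay closest to the control. RPS3 (YNL178W), also at the entry channel and involved in surveillance of stalled ribosomes, varied little: its HMF arrays spanned -0.79 to -0.51 (median -0.71) and its control arrays -0.15 to 0.35 (median 0.092). The difference of RPS3 was -0.79 (SE 0.12, adjusted p = 0.004), with -0.86, -0.85, -0.67 and -0.77 at the 4 times.

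RPS15 (YOL040C) and RPS20 (YHL015W), both for proteins of the 40S head, had the lowest median HMF levels of the single-copy genes. RPS15 was at -1.27 and -1.62 (10 min), -1.87 and -1.94 (30 min), -1.13 and -1.52 (60 min) and -1.05 (120 min) with HMF and at -0.66 and -0.64, -0.27 and -0.42, -0.24 and -0.70, and -0.48 in the control. RPS20 spanned -1.79 to -1.03 (median -1.38) with HMF and -0.83 to -0.25 (median -0.38) in the control. Both also had low control values, so that their differences, -0.94 (SE 0.14, adjusted p = 0.0034) and -0.92 (SE 0.18, adjusted p = 0.012), were near the median of the 56 genes. RPS13 (YDR064W), encoding a protein of the body that contacts the large subunit, differed by -0.85 (SE 0.15, adjusted p = 0.008). RPS12 (YOR369C), for a head protein, and RPS31 (YLR167W), whose product is made as a fusion of ubiquitin with the ribosomal protein, had the smallest differences of the 8, -0.75 (SE 0.17, adjusted p = 0.025) and -0.74 (SE 0.16, adjusted p = 0.018). These were the 2 single-copy genes that lost the call when an array was left out, RPS12 in 5 of the 12 cases and RPS31 in 1.

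Of the duplicated genes, RPS0B (YLR048W) had the lowest mean difference of the 56. The Rps0 proteins lie on the solvent side of the platform and are needed for late 40S maturation. RPS0B was at -0.93 and -1.72 (10 min), -1.48 and -2.06 (30 min), -0.98 and -0.85 (60 min) and -0.96 (120 min) with HMF and at -0.095 and -0.40, -0.17 and 0.09, 0.053 and -0.038, and 0.046 in the control, and differed by -1.19 (SE 0.17, adjusted p = 0.0037), a 2.28-fold lower level. RPS16A (YMR143W), for a head protein, spanned -1.44 to -0.72 (median -0.87) with HMF and -0.25 to 0.25 (median 0.055) in the control, and differed by -1.04 (SE 0.12, adjusted p = 0.0015). RPS24B (YIL069C), for a protein of the body, spanned -1.52 to -0.74 (median -1.18) and -0.69 to 0.16 (median -0.089), and differed by -1.01 (SE 0.18, adjusted p = 0.0079). RPS11A (YDR025W), for a universally conserved protein of the body, spanned -1.95 to -0.88 (median -1.23) and -0.80 to -0.0039 (median -0.28), and differed by -1.01 (SE 0.18, adjusted p = 0.0077). In each of these 4 genes the HMF and control arrays did not overlap, and each was called in all 12 fits with an array left out. The decoding-site genes RPS23A (YGR118W) and RPS23B (YPR132W) differed by -0.76 (SE 0.12, adjusted p = 0.0043) and -0.85 (SE 0.14, adjusted p = 0.0051), close to the median of the group. Genes for proteins of the head (22 genes) had a median difference of -0.81 with 18 called, and those of the body and platform (34 genes) -0.92 with 30 called. Families found in all domains of life (24 genes) had a median of -0.91 with 23 called, and the other 32 genes -0.87 with 25 called.

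**Figure D3:**
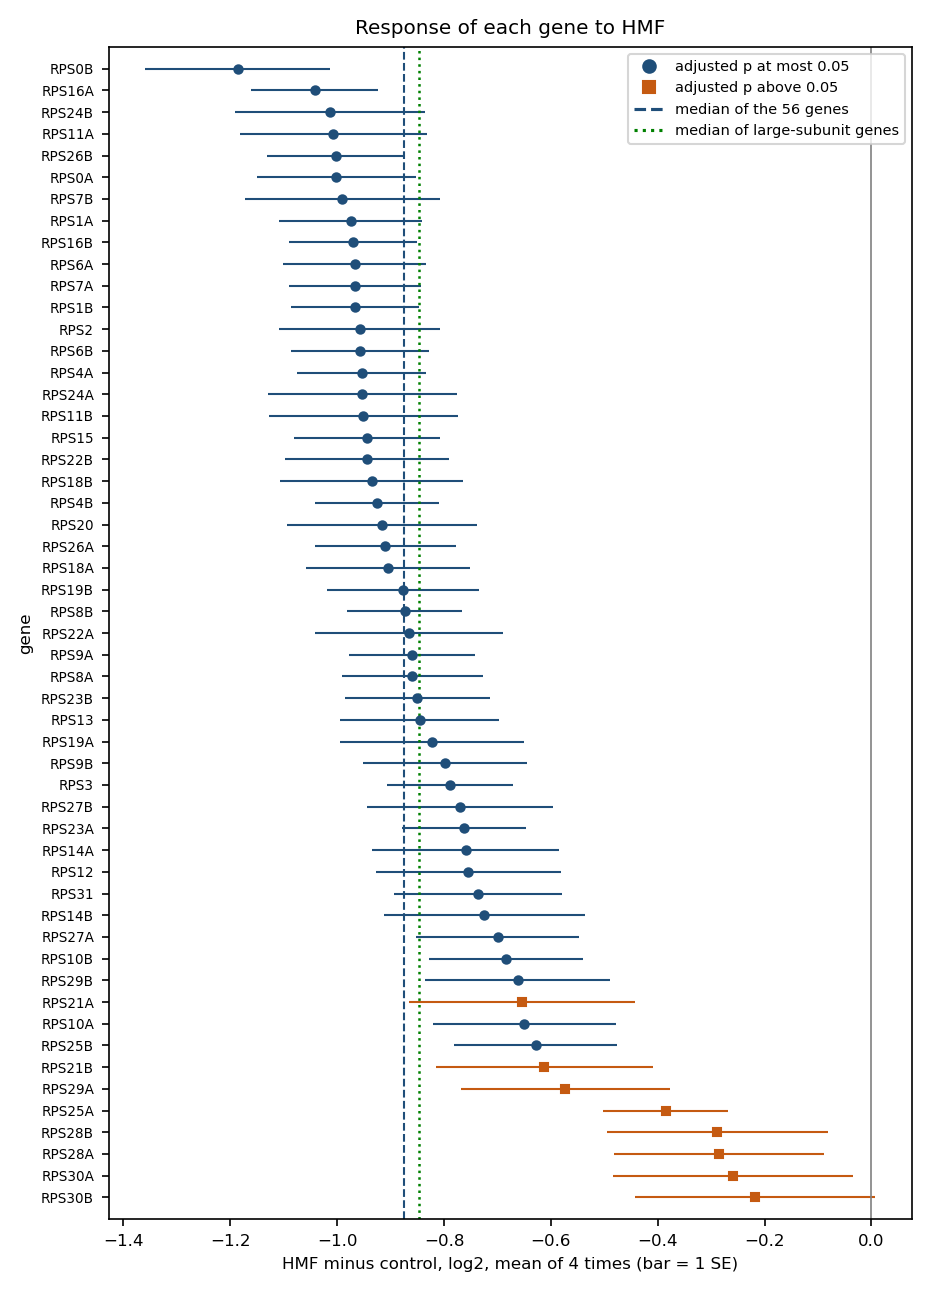
HMF minus control difference (log2, mean of the 4 times, bars 1 SE from limma) of 53 of the 56 genes; blue circles were called at an adjusted p of at most 0.05, orange squares were not, and the vertical lines mark 0, the small-subunit median (-0.88) and the large-subunit median (-0.85). The 5 points nearest 0, RPS30B to RPS25A, stand between -0.22 and -0.39, apart from the other 48 genes shown.

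To find genes that departed from the group, the median of the 56 genes was taken off every array and the same limma fit was run. Of the 56, 5 genes (8.93%) were called, all with a less negative difference than the group, where 69.7% of all genes departed from this median. Because so many genes departed, the adjustment over all genes raised p little, for RPS0B from 0.20 to 0.24 in this limma fit. An adjustment over the 56 genes alone would be stricter and was not run. The 5 calls therefore hold only for the adjustment over all genes. These were RPS30B (YOR182C) at 0.62 (SE 0.19, adjusted p = 0.019), RPS30A (YLR287C-A) at 0.58 (SE 0.18, adjusted p = 0.02), RPS28A (YOR167C) at 0.56 (SE 0.14, adjusted p = 0.0072), RPS28B (YLR264W) at 0.55 (SE 0.14, adjusted p = 0.0084) and RPS25A (YGR027C) at 0.46 (SE 0.17, adjusted p = 0.043). The first 4 were called in all 12 fits with an array left out. RPS25A was called in 3 of the 12, its adjusted p reaching 0.088. On the other side, RPS0B was -0.34 from the median (adjusted p = 0.24), and no gene was called below the group.

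RPS30A and RPS30B encode a small protein at the mRNA entry channel. RPS30A was at -0.96 and -0.12 (10 min), -0.79 and 0.029 (30 min), -0.24 and -0.80 (60 min) and -0.38 (120 min) with HMF and at -0.74 and -0.40, -0.19 and -0.49, -0.057 and -0.65, and 0.48 in the control. RPS30B was at -1.25 and -0.23 (10 min), -0.72 and -0.037 (30 min), -0.25 and -0.69 (60 min) and -0.26 (120 min) with HMF and at -0.64 and -0.44, -0.045 and -0.51, -0.21 and -0.76, and 0.32 in the control. At 10, 30 and 60 min the HMF and control arrays of both genes overlapped, and at 120 min the single HMF array lay below the single control array. Their differences at 10, 30, 60 and 120 min were 0.026, -0.041, -0.17 and -0.85 for RPS30A and -0.20, -0.10, 0.012 and -0.58 for RPS30B. Neither mean difference was called (-0.26 (SE 0.22, adjusted p = 0.54) and -0.22 (SE 0.23, adjusted p = 0.62)), and their SEs were the 2 largest of the 56 genes. RPS28A and RPS28B encode a small protein of the head near the mRNA exit, and Rps28p also takes part in feedback control of the RPS28B mRNA. RPS28A was at -0.93 and -0.32 (10 min), -1.08 and -0.17 (30 min), -0.36 and -0.48 (60 min) and -0.46 (120 min) with HMF and at -0.63 and -0.15, -0.48 and -0.18, -0.26 and -0.51, and 0.11 in the control. RPS28B was at -0.81 and -0.28 (10 min), -0.93 and -0.019 (30 min), -0.21 and -0.28 (60 min) and -0.38 (120 min) with HMF and at -0.71 and -0.026, -0.33 and 0.036, 0.11 and -0.25, and 0.094 in the control. In both genes the first HMF replicate at 10 and 30 min was far below the second, and the second lay within or close to the control range. The differences of RPS28A and RPS28B were -0.29 (SE 0.20, adjusted p = 0.43) and -0.29 (SE 0.21, adjusted p = 0.45).

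RPS25A departed in another way. Rps25p is a head protein that yeast needs for initiation at certain viral internal ribosome entry sites. RPS25A was at -0.033 and -0.20 (10 min), -0.44 and -0.78 (30 min), -0.39 and -0.42 (60 min) and 0.25 (120 min) with HMF and at 0.11 and 0.14, 0.11 and 0.38, 0.045 and 0.21, and 0.16 in the control, so that it was lower with HMF at 10, 30 and 60 min, with no overlap, and slightly higher at 120 min. Its difference was -0.39 (SE 0.12, adjusted p = 0.071), with -0.25, -0.86, -0.53 and 0.09 at the 4 times. It was the one gene of the 56 above 0 on the HMF array at 120 min, and 1 of 3 genes, with RPS30A and RPS30B, whose difference was not below 0 at all 4 times, whereas it was in the other 53 and in 17.8% of all genes. RPS25B (YLR333C) was at -0.97 and -0.66 (10 min), -1.25 and -0.79 (30 min), -0.89 and -1.44 (60 min) and -0.84 (120 min) with HMF and at -0.68 and -0.30, -0.30 and -0.42, -0.41 and -0.51, and -0.012 in the control, and differed by -0.63 (SE 0.15, adjusted p = 0.032). Thus both copies were lower with HMF at 10, 30 and 60 min, but RPS25A stood above RPS25B on all 14 arrays. The call of RPS25B held in 4 of the 12 fits with an array left out.

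The remaining genes that were not called had intermediate differences. RPS21A (YKR057W) and RPS21B (YJL136C), whose product joins the subunit next to Rps0p, differed by -0.65 (SE 0.21, adjusted p = 0.087) and -0.61 (SE 0.20, adjusted p = 0.094). RPS29A (YLR388W), for a zinc-binding head protein, differed by -0.57 (SE 0.20, adjusted p = 0.1), whereas RPS29B (YDL061C) was called at -0.66 (SE 0.17, adjusted p = 0.042), a call that held in 3 of the 12 fits with an array left out. A set of genes for short proteins (RPS21, RPS27, RPS28, RPS29 and RPS30, 10 genes, chosen after the values were seen) had a median difference of -0.59. The other 46 genes, which include RPS31, had a median of -0.92. This difference was not tested, and the set is not a ranking by protein length.

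The A and B copies of a pair were compared by the difference of their log2 ratios on each array, in which the level of the array cancels. The change of this difference with HMF was tested by an exact two-sided permutation of the treatment labels within each time (432 arrangements, smallest p 0.00463), adjusted over the 24 pairs. Of the 24 pairs, 19 had both copies called lower, 2 had one copy called (RPS25B and RPS29B) and 3 had none (RPS21, RPS28 and RPS30). Within the 19 pairs some copies kept the call in only 2 of the 12 fits with an array left out. The responses of A and B differed by less than 0.1 in 22 pairs, and the median absolute difference was 0.048, compared with 0.17 over the 1516 other pairs of these genes. Over the 14 arrays the 2 copies correlated at a median r of 0.96 (0.63 to 0.99), compared with 0.87 for the other pairs; the arrays share the treatment, so these are descriptions. Whether the long oligonucleotides tell near-identical copies apart is not known from the sources used here, so a shared signal cannot be told apart from a shared response. The median difference was -0.86 over the A copies, -0.90 over the B copies and -0.88 over the single-copy genes.

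No pair passed the adjusted test (smallest adjusted p 0.833), and 1 pair reached 0.05 before adjustment. With 24 pairs and 432 arrangements a single pair could reach an adjusted p of 0.111 at best, so the design cannot call 1 pair alone. The pair past 0.05 before adjustment was RPS0, in which the fall was smaller in RPS0A (YGR214W) than in RPS0B by 0.18 (exact permutation p = 0.042, adjusted 0.833), with the same sign at all 4 times (0.069, 0.27, 0.12 and 0.27). RPS0A minus RPS0B was -0.15 to 0.37 (median 0.08) on the HMF arrays and -0.22 to 0.061 (median -0.026) on the control arrays, which overlap. When labels were exchanged only within a replicate number (128 arrangements), its p was 0.062. The largest A minus B difference was that of RPS25, 0.24 (exact permutation p = 0.45), which came to 0.079, -0.20, 0.17 and 0.92 at the 4 times. The single arrays at 120 min carried most of it, and the within-group SD of RPS25A minus RPS25B was 0.35. Next came RPS26 (0.093, exact permutation p = 0.11), RPS29 (0.09, p = 0.33) and RPS23 (0.087, p = 0.39), in each of which the B copy had the lower difference. Rps26p sits at the mRNA exit and contacts the mRNA upstream of the start codon. Among the closest pairs were RPS28 (0.0032) and RPS1 (-0.0085). RPS28A and RPS28B thus gave nearly equal responses, and RPS30A and RPS30B were also close (-0.042). As the probes may not separate the copies, the A and B values of a pair are not independent.

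RPS7, singled out after its values were seen, had nearly equal mean responses in both copies (-0.97 and -0.99) but an A minus B difference that varied among arrays. RPS7A (YOR096W) was at -1.04 and -0.94 (10 min), -1.39 and -1.27 (30 min), -0.88 and -0.69 (60 min) and -0.70 (120 min) with HMF, and RPS7B (YNL096C) at -1.74 and -2.17 (10 min), -1.35 and -1.82 (30 min), -0.63 and -1.43 (60 min) and -1.06 (120 min). RPS7B also lay lower in the control (-0.80 to -0.065 (median -0.49)) than RPS7A (-0.32 to 0.17 (median 0.057)). The A minus B response was 0.39, 0.057, -0.47 and 0.12 at the 4 times, with a within-group SD of 0.43, and the copies correlated at r = 0.78 over the 14 arrays.

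**Figure D4:**
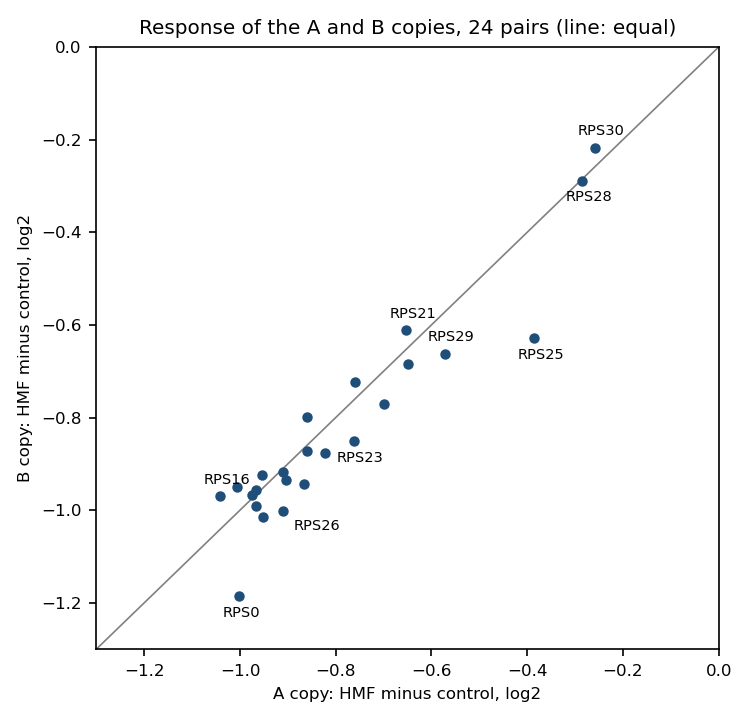
HMF minus control difference (log2, mean of the 4 times) of the B copy against that of the A copy for 24 gene pairs; the line marks equal responses and labeled pairs are those named in the text. The 22 pairs within 0.1 of each other hug the line from -1.04 to -0.22, and RPS25 and RPS0 lie below it.

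The 2 HMF replicates of 10 and 30 min did not order the 56 genes alike. In 10 genes, among them RPS0A, RPS0B, RPS2, RPS7B, RPS11A, RPS11B (YBR048W), RPS15, RPS20 and RPS25A, the second replicate was lower than the first at both times. In the other 46 genes the second replicate was higher at 10 min, and at 30 min it was higher in all of them but RPS16B (YDL083C). The median of the 10 genes went from -0.98 in the first replicate to -1.67 in the second at 10 min, and from -1.47 to -1.85 at 30 min. For the other 46 it went from -1.02 to -0.71 and from -1.37 to -0.87. Across the 56 genes the replicate difference at 10 min correlated with that at 30 min at r = 0.86, a description over genes that share arrays. The control arrays of 10 min split partly in the same way: the second replicate was lower in 7 of the 10 genes and in 0 of the other 46. At 60 min the second HMF replicate was lower in 8 of the 10 and in 32 of the 46. Both subsets were drawn from these values, so they carry no test.

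Within replicate numbers the response was present in each. The median HMF minus control difference of the 56 genes was -0.64 in replicate 1 and -0.88 in replicate 2 at 10 min, -1.26 and -1.04 at 30 min, and -0.73 and -0.76 at 60 min. It was below 0 in all 56 genes in replicate 1 at each of the 3 times, and in 54, 53 and 54 genes in replicate 2. The within-group SD of the 56 genes had a median of 0.25 (0.11 to 0.43), and the median over all genes was 0.34. Among the 1540 pairs of the 56 genes the correlation over the 14 arrays had a median of 0.87 and ranged from -0.026 to 0.99, with 109 pairs below 0.5.

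**Figure D5:**
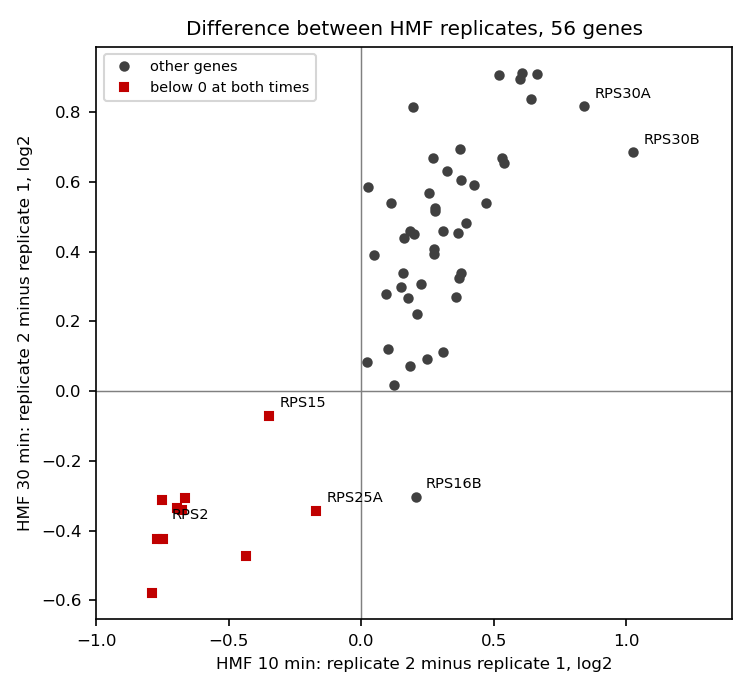
Second minus first HMF replicate (log2) at 30 min against the same difference at 10 min for the 56 genes; red squares are the 10 genes below 0 at both times. The other 46 genes lie right of 0 at 10 min and, except RPS16B, above 0 at 30 min.

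The cytosolic large-subunit genes were also lower with HMF. Of 81 such genes 71 were called lower on the mean of the 4 times, and their median difference was -0.85, with -0.76, -1.08, -0.70 and -0.80 at the 4 times, beside -0.78, -1.16, -0.75 and -0.80 for the small subunit. Quantile normalization left 53 large-subunit calls and the deposited scale 7, while the block gave 73 and separate blocks per time 76. Their lowest differences were those of RPL8A (-1.28), RPL8B (-1.24) and RPL16A (-1.18). Among 6331 genes outside the 56, those whose values over the 14 arrays correlated best with the small-subunit median were RPL23B (r = 0.990), YBR191W-A (0.987), RPL21A (0.983), RPL23A (0.981) and RPL26A (0.981), and 41 of the best 50 were large-subunit genes. The 30 genes for small-subunit proteins of the mitochondrial ribosome, which translates the few messages of mitochondrial DNA, had a median difference of 0.11 with none called by limma in either direction, 4 at 0.05 or less before adjustment, 1 called with the block, 2 with a block for each time and 1 by the ordinary fit.

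Of 16 genes for factors that build the 40S subunit 5 were called lower on the mean of the 4 times: LTV1 at -0.80 (SE 0.12, adjusted p = 0.0043), which encodes a factor released late in 40S assembly, and TSR1, EMG1, NOB1 and DIM1 between -0.57 and -0.50. With the block 7 were called, PNO1 and TSR3 being added, whereas LTV1 alone was called with quantile normalization and none on the deposited scale. Of the 5, LTV1 alone kept an adjusted p of at most 0.05 with each array left out in turn. The median of the 16 was -0.91 at 10 min and 0.0016, -0.14 and -0.44 at the later times, beside the small-subunit median, which was lowest at 30 min. A change of the difference with time was called by limma for none of the 16, with 6 at 0.05 or less before adjustment and none by the ordinary fit, and the difference between the lists was not tested. Of 13 regulators of these genes, RAP1 was called, at -0.91 (SE 0.11, adjusted p = 0.0016). RAP1 spanned -1.14 to -0.62 with HMF and -0.085 to 0.17 in the control, without overlap, and had an adjusted p of 0.096 on the deposited scale. Its partners in this control were not called: FHL1 differed by -0.075 (SE 0.15, adjusted p = 0.81), IFH1 by -0.22 (SE 0.25, adjusted p = 0.65) and SFP1 by -0.14 (SE 0.13, adjusted p = 0.6).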

How the data were processed

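Small-subunit ribosomal protein mRNA was measured in 14 two-color 70-mer oligonucleotide arrays of 2 treatments and 4 times, grouped by the sample titles. The authors used GenePix to scan the slides, took median spot signals less local background, inspected the spots, scaled slides to a spike-in control (CAB) and deposited 1 log2 ratio of test (Cy3) to 0 min RNA (Cy5) for each of 6387 open reading frames. How duplicate spots were combined and how well the probes separate gene copies are not given in the sources used here. The log base and direction were checked on the values against the fold changes tabulated by the study. The deposited values are not centred, and signal intensities were not used here.

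Each array was centred on its median. A mean per treatment and time (8 groups) was fitted with limma 3.58.1 in R 4.3.3 (lmFit, eBayes), with 6 residual and 2.53 prior degrees of freedom. Benjamini-Hochberg adjustment ran over all 6387 genes of a contrast. Paralog pairs were tested by exact permutation in Python 3.11.15, and the same limma fit was run after subtracting the median of the 56 genes. Both were tested on simulated data. The members and lists were chosen with earlier results of these data known. Genes named are the 8 single-copy genes, the 5 lowest and 5 highest differences, the 5 largest and 3 smallest paralog differences, the 5 largest departures, genes named for their role, called genes of the lists, and the 5 genes most like the group median; further names are marked as chosen after their values were seen. A few genes that this rule covers are not reported here by name and are not drawn singly in the plots of single genes, but stay in every count and median. Symbols come from the reference gene table of assembly R64, which lists 5840 of the open reading frames. Nothing in the labels states where the replicates came from beyond calling them biological, so p-values measure the spread between these samples.

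The treatments share replicate numbers, and no pairing is stated. Across genes, the difference between replicates 1 and 2 under HMF correlated with that in the control at r = 0.31 (10 min), 0.28 (30 min) and 0.17 (60 min). Each exceeds 0.1, so the numbers were taken to pair the arrays of a time. Between groups of different times this correlation ran from 0.016 to 0.36, so these values do not single out a pairing within a time. Counts of the 56 genes with replicate number as a block are given where they differ by over 1.5 times. Alternatives were the deposited scale, centring without ribosomal protein genes, quantile normalization, the replicate block over all times or per time, robust eBayes, the ordinary two-factor fit of the methods, and leaving out the 120 min arrays or each replicated array.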

Additional observations from a re-analysis of the deposited data

Results flagged for a closer look

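RPS25A had the opposite sign at 120 min to that at 10, 30 and 60 min. Its HMF minus control difference was 0.0904 at 120 min, from 1 array per treatment, while both HMF arrays lay below both control arrays at each earlier time (-0.25, -0.86 and -0.53). This contrast of 120 min with the earlier times was not tested by itself; the test of any change of the difference with time gave an adjusted p of 1.00 for RPS25A in the limma fit. Groups of 1 or 2 arrays are too small for a check of single outlying arrays.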

How the results depend on the processing

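The mean difference of all 56 genes stayed below 0 under every scaling. The count of genes called lower on the mean of the 4 times, 48, became 2 on the deposited scale and 38 to 49 with a replicated array left out, the lowest without the first control replicate at 60 min. At 10 min the count of 0 became 19 with the replicate block, 7 with one block per time and 5 in the two-factor fit. At 30 min the count of 22 became 0 on the deposited scale, 1 with quantile normalization, 37 with the block and 0 to 21 with an array left out. Shares of all genes are not given for the fits with an array left out. At 60 min the count of 0 became 3 with the block and 1 in the two-factor fit. The replicate block changed no other count of genes called lower or departing among the 56 by over 1.5 times. The count over the 4 times was 51 with one block per time, where 1062 of all 6387 genes were called in either direction. Without a block 399 of all genes were called lower and 325 higher. With the block a single paralog pair could reach an adjusted p of 0.375 at best, so the count of 0 pairs says nothing on their stability.

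The median difference at 10 min moved to -1.45 on the deposited scale and -0.41 with quantile normalization, and spanned -0.94 to -0.55 with an array left out, the latter without the second control replicate at 10 min. At 30 min it moved to -1.50 and -0.94, and at 60 min to -0.51 on the deposited scale. The cause of these shifts was not tested, except that the deposited scale keeps the array levels.

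For 26 named genes and 416 alternatives, 367 kept direction and side of the threshold, 47 lost the call, 2 gained it and none changed sign. Among named pairs, RPS1 and RPS28, with small A minus B responses, changed sign: RPS1 to 0.0067 without the 120 min arrays, and between -0.031 and 0.014 with an array left out; and RPS28 between -0.021 and 0.028. No signal over background could be examined.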

Other observations

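Some of the genes that correlated best with the small-subunit median lie next to ribosomal protein genes. They were taken from that ranking, so their high correlation with the median was fixed by the choice. SEC6, for a subunit of the exocyst that tethers secretory vesicles and outside both cytosolic subunits, ranked 14th of 6331 genes in correlation with the small-subunit median (r = 0.964). It lies beside RPS24B in the reference gene table, correlated with it at r = 0.991 over the 14 arrays, and differed between HMF and control by -0.93 (SE 0.15, adjusted p = 0.0054), beside -1.01 for RPS24B. ARO2, for chorismate synthase, lies beside RPL9A and differed by -0.96 (SE 0.13, adjusted p = 0.0028). Further such genes were less uniform. YLR326W was close to its neighbor RPL38 (-0.59 and -0.57). MLO50 and RPS0B (-0.61 and -1.19), and HMF1 and RPL34A (-0.38 and -0.74), lay further apart.

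The 56 genes include 8 direct neighbors with another cytosolic ribosomal protein gene. RPS16A and RPL13B, and RPS16B and RPL13A, correlated at r = 0.95 and 0.94, while RPS22A and RPL39 correlated at 0.57, with differences of -0.87 and -0.44. Of the large-subunit genes 10 were not called, and the smallest differences among them were those of RPL41B (-0.25), RPL41A (-0.29), RPL29 (-0.39) and RPL39 (-0.44). These genes were chosen after their values were seen.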
